A study of Mus musculus with 9 samples.

Results

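Interferon-stimulated genes are the genes that cells switch on when they sense type I interferon. In this account they are 37 genes of the mouse, chosen by name: every row of the count table whose symbol was on a set list of type I interferon-stimulated genes. That list was drawn up with earlier results of these data known. The table held 22036 annotated genes, and all 37 had a row and passed the filter on low counts, which left 14160 genes for testing. By role they comprised 4 sensors of foreign nucleic acid, 4 transcription factors and 29 effectors, the last in 7 families. On the GENCODE annotation of GRCm38, 7 of them lie on chromosome 11, 5 on chromosome 5, 4 each on chromosomes 16 and 19, and 3 each on chromosomes 2, 7 and 12.

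Left ventricles of 9 wild-type mice were profiled by bulk mRNA sequencing, with 3 biological replicates in each of 3 groups. HFD+AAV-BCKDK mice ate the diet labelled HFD, a label taken to mean high-fat, and received an adeno-associated virus (AAV) vector named for BCKDK, the mitochondrial kinase that switches off the branched-chain ketoacid dehydrogenase. HFD+AAV-CON mice were on the same diet and received the control vector, and ND+AAV-CON mice received the control vector while eating the ND diet, a label taken to mean normal. All 3 groups thus carried an AAV vector, and no group without a vector was analysed here. The sources used here state no diet composition or duration, no vector dose, serotype or promoter, and no strain, sex or age of the mice. The study asks, per its title, whether BCKDK protects the heart from remodelling in obesity.

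As background, type I interferons bind the receptor pair IFNAR1 and IFNAR2 and activate the kinases JAK1 and TYK2. The signal leads to the complex ISGF3, of which STAT2 and IRF9 are parts and which binds the interferon-stimulated response element (ISRE) in the promoters of target genes. Interferon gamma acts through its own receptor and another element, the gamma-activated site (GAS), and many genes answer to both. The response arms a cell against viruses, and in the heart it is known from viral myocarditis and from infarction, where macrophages are a main responding cell.

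The promoter sequences show the response element that ISGF3 binds, and how unevenly it is spread among the members. RefSeq promoters on GRCm38.p6, the patch series of the build mm10, ran from 250 bases before to 50 bases after each gene start. They matched 28 of the 37 members by symbol, with 32 promoters in all. The 9 others were Dhx58, Zbp1, Usp18, Oas2, Mx1, Mx2, Rtp4, Ifi27l2a and Parp14. The 8 sequences below are the 250 bases before the start, 5′ to 3′ on the gene's strand, with every match to the ISRE core in capitals. The core searched was GAAA, any 2 bases and GAAA again, on either strand, so that a match on the other strand reads TTTC, any 2 bases and TTTC.
The chosen genes are the ubiquitin-like modifier Isg15 with a run of 3 overlapping matches, 3 members of the IFIT cluster with 2 matches each, Oas3 with the largest fold change under the diet, Slfn2 with a large fold change and no match, and Rsad2 and Slfn5, each with 1 match, which were not called lower with the BCKDK vector in the fit reported here (both were with total-count scaling).
Isg15: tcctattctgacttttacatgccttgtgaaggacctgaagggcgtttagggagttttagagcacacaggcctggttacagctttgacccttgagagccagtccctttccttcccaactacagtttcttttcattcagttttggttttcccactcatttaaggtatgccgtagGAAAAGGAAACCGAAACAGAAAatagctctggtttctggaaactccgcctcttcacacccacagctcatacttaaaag
Ifit1: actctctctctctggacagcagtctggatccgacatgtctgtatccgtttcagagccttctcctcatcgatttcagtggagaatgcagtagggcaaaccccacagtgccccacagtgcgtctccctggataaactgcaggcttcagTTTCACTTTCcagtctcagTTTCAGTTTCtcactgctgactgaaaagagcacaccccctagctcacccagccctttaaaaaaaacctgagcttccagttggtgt
Ifit3: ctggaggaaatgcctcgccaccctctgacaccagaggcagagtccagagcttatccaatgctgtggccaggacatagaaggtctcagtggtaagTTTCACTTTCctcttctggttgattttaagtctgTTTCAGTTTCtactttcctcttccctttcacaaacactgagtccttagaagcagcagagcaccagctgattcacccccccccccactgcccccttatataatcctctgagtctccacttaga
Ifit3b: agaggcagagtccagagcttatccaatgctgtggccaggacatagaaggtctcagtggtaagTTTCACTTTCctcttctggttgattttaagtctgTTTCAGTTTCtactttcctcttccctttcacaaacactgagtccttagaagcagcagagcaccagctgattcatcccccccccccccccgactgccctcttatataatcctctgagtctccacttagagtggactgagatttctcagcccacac
Oas3: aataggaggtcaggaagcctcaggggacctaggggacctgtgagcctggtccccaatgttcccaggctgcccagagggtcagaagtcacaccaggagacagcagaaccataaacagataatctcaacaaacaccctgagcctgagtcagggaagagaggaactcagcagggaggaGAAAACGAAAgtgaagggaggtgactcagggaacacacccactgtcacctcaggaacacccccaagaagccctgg
Slfn2: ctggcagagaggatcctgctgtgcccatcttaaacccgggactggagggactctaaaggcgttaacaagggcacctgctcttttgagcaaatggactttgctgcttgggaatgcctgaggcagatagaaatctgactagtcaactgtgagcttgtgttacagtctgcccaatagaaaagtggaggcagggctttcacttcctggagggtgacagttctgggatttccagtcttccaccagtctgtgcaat
Rsad2: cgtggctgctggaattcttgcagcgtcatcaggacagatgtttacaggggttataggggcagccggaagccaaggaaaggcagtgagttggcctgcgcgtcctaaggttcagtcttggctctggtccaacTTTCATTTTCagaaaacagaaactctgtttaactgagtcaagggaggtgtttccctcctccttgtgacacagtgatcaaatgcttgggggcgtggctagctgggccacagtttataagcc
Slfn5: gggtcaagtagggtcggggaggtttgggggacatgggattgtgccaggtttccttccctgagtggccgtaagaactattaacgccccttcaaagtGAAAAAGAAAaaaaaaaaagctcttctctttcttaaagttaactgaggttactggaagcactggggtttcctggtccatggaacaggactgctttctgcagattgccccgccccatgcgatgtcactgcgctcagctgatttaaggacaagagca
These stretches lie at chr4:156200819-156201068 (minus strand) for Isg15, chr19:34640639-34640888 (plus strand) for Ifit1, chr19:34583279-34583528 (plus strand) for Ifit3 and chr19:34607707-34607956 (plus strand) for Ifit3b. Those of the other genes lie at chr5:120777660-120777909 (minus strand) for Oas3, chr11:83064862-83065111 (plus strand) for Slfn2, chr12:26456453-26456702 (minus strand) for Rsad2 and chr11:82951852-82952101 (plus strand) for Slfn5.

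In Isg15 the matches began 78, 72 and 66 bases before the start and shared letters with each other. Ifit1 had matches that began 104 and 85 bases before its start, 19 bases apart. In Ifit3 and Ifit3b the matches stood 34 bases apart in both promoters, and the 2 printed stretches shared an unbroken run of 169 bases. The longest run shared by Ifit3 and Ifit1 was 13 bases. The ISRE core was present in 15 of the 28 members with a promoter (53.6%), against 3.99% of the 27025 genes in the RefSeq table and 3.45% of its 32544 promoters. The GAS core, searched as TTC, any 3 bases and GAA, which reads the same on both strands, was present in 8 of 28 members (28.6%), against 9.55% of genes and 8.33% of promoters. It can share bases with an ISRE match, as it does in Bst2 and Ifitm3.

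**Figure D1:**
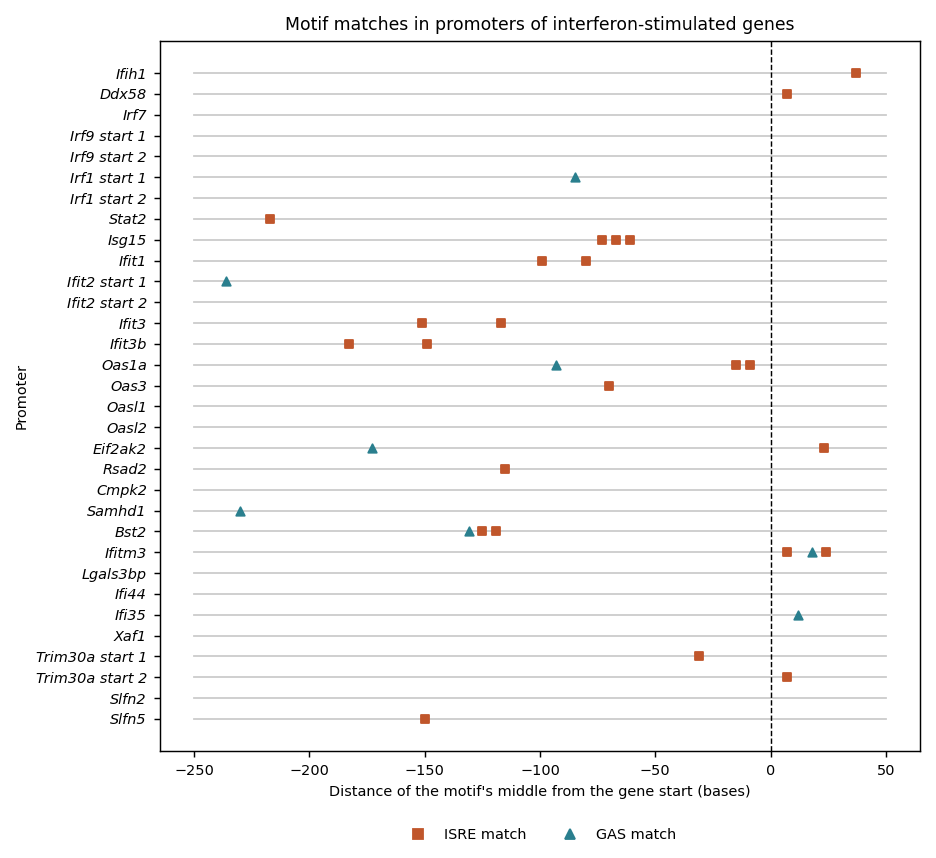
Position of ISRE core matches (squares) and GAS core matches (triangles) in the 32 RefSeq promoters of 28 members, in bases from the gene start (dashed line); grey lines span 250 bases before to 50 bases after the start. Isg15, Ifit1, Ifit3, Ifit3b, Oas1a and Bst2 have 2 or more ISRE matches before the start, and 13 of the 28 members have no ISRE match in the window.

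Depth ranged from 32803233 to 45483044 counts in annotated genes per library. No 2 replicates of a group were copies of one library: the chi-square of their counts divided by its degrees of freedom was 14.9 or more in every pair. Levels below are CPM (counts scaled to library size with TMM factors), and fold changes are on the log2 scale with their standard error (SE) and the adjusted p of edgeR's quasi-likelihood test, which was fitted to all 14160 genes. A gene is called where that adjusted p is under 0.05. "Under the diet" compares HFD+AAV-CON hearts with ND+AAV-CON hearts, and "with the vector" compares HFD+AAV-BCKDK hearts with HFD+AAV-CON hearts. Bckdk itself, the gene the vector is named for, had 111, 126 and 119.9 CPM in HFD+AAV-BCKDK hearts, 37.1, 64.99 and 49.4 CPM in HFD+AAV-CON hearts, and 78.6, 70.3 and 70.6 CPM in ND+AAV-CON hearts, with the 3 HFD+AAV-BCKDK libraries above the other 6. Its fold change was 1.24 (SE 0.17, adjusted p = 0.00161) with the vector and -0.54 (SE 0.17, adjusted p = 0.03) under the diet.
One library stood apart: HFD+AAV-CON replicate 3 held 1.02% of its counts in loci without a gene name, against 4.75% to 6.01% in the other 8 libraries. Its level lay between those of the other HFD+AAV-CON libraries in 64.2% of all genes tested (14.9% to 37.7% for the other 8 libraries within their groups) and in 33 of the 37 members. The chi-square per degree of freedom was 261 between HFD+AAV-CON replicates 1 and 2, 63.6 between 1 and 3, and 73.9 between 2 and 3. That check finds copies only, so whether replicate 3 is independent of the other HFD+AAV-CON libraries was not tested. The p-values below take it as independent. Main counts are therefore also given without replicate 3.
The markers of cardiomyocytes matched the labelled tissue, with a summed level of 33728 to 36584 CPM in HFD+AAV-BCKDK, 18335 to 30736 CPM in HFD+AAV-CON and 38260 to 39951 CPM in ND+AAV-CON hearts. Counts mapped to mitochondrially encoded genes made up 45.0% to 47.6%, 26.1% to 39.9% and 42.1% to 45.7% of the libraries of HFD+AAV-BCKDK, HFD+AAV-CON and ND+AAV-CON hearts in that order of groups. Scaling to total counts in place of TMM moved the median of all genes by 0.40 under the diet and by -0.47 with the vector on the log2 scale.

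All 37 interferon-stimulated genes were higher in HFD+AAV-CON than in ND+AAV-CON hearts, and 33 of them were lower in HFD+AAV-BCKDK than in HFD+AAV-CON hearts. Summed over the 37 genes, the level was 732, 711 and 791 CPM in HFD+AAV-BCKDK hearts, 1765, 1325 and 1559 CPM in HFD+AAV-CON hearts, and 650.1, 639 and 736 CPM in ND+AAV-CON hearts. The HFD+AAV-CON sums stood above all others, while the HFD+AAV-BCKDK and ND+AAV-CON sums overlapped, since the highest ND+AAV-CON library exceeded 2 of the HFD+AAV-BCKDK libraries. In bulk tissue, fewer cells of a responding type and less RNA per cell cannot be told apart.

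Under the diet, all 37 members were called higher, against a background of 22.7% of all genes tested called higher under the diet. Since earlier results of these data were known when the list was drawn up, this count describes the members and is no independent test. Their median log2 fold change was 1.37, beside 0 for all genes, and single members ranged from 0.29 for Slfn5 to 4.38 for Oas3. In all 37 the lowest HFD+AAV-CON library was above the highest ND+AAV-CON library, as it was in 28.2% of all genes. At least 2-fold changes were called in 26 members, against 10.5% of all genes. Without HFD+AAV-CON replicate 3 all 37 were still called higher, with a median of 1.37.

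With the BCKDK vector, 33 of 37 members were called lower in HFD+AAV-BCKDK against HFD+AAV-CON, beside 20.9% of all genes. Their median was -1.17, beside -0.01 for all genes. The members ranged from -3.39 for Oas3 to -0.01 for Slfn5. The groups did not overlap in 33 members, beside 27.3% of all genes, and 24 members fell at least 2-fold, beside 10.3% of all genes. Without HFD+AAV-CON replicate 3, 32 were called lower and the median was -1.13. The 4 members not called were Oas2, Mx2, Rsad2 and Slfn5. All 4 were called lower when libraries were scaled to their total counts, at -0.57, -0.86, -0.85 and -0.47 in that order. That scaling also moved the median of all genes by -0.47 and called more of all genes lower than TMM factors did (counts are given at the end). The vector comparison and the diet comparison share the HFD+AAV-CON libraries, so a high value in those libraries enters both, with opposite sign.

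Between HFD+AAV-BCKDK and ND+AAV-CON hearts, which differ in diet and vector together, 1 member, Oas2, was called higher, beside 1.18% of all genes, and none was called lower, beside 1.27% of all genes. With an unadjusted p under 0.05, edgeR's quasi-likelihood test gave 8 members higher and 0 lower, beside 1064 and 1341 of all 14160 genes tested. DESeq2 gave 9 members higher and 0 lower at that p, and limma-voom 6 and 0. After adjustment DESeq2 called 4 and limma-voom 1 higher, and both called 0 lower. The median was 0.11, beside -0.03 for all genes, with a range from -0.32 for Ifit3b to 0.99 for Oas3. In 7 members (Oas1a, Oas2, Mx2, Rsad2, Bst2, Ifi44 and Slfn5) all HFD+AAV-BCKDK libraries were above all ND+AAV-CON libraries, beside 12.6% of all genes. A gene that was not called here is not shown to be equal in these 2 groups.

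**Figure D2:**
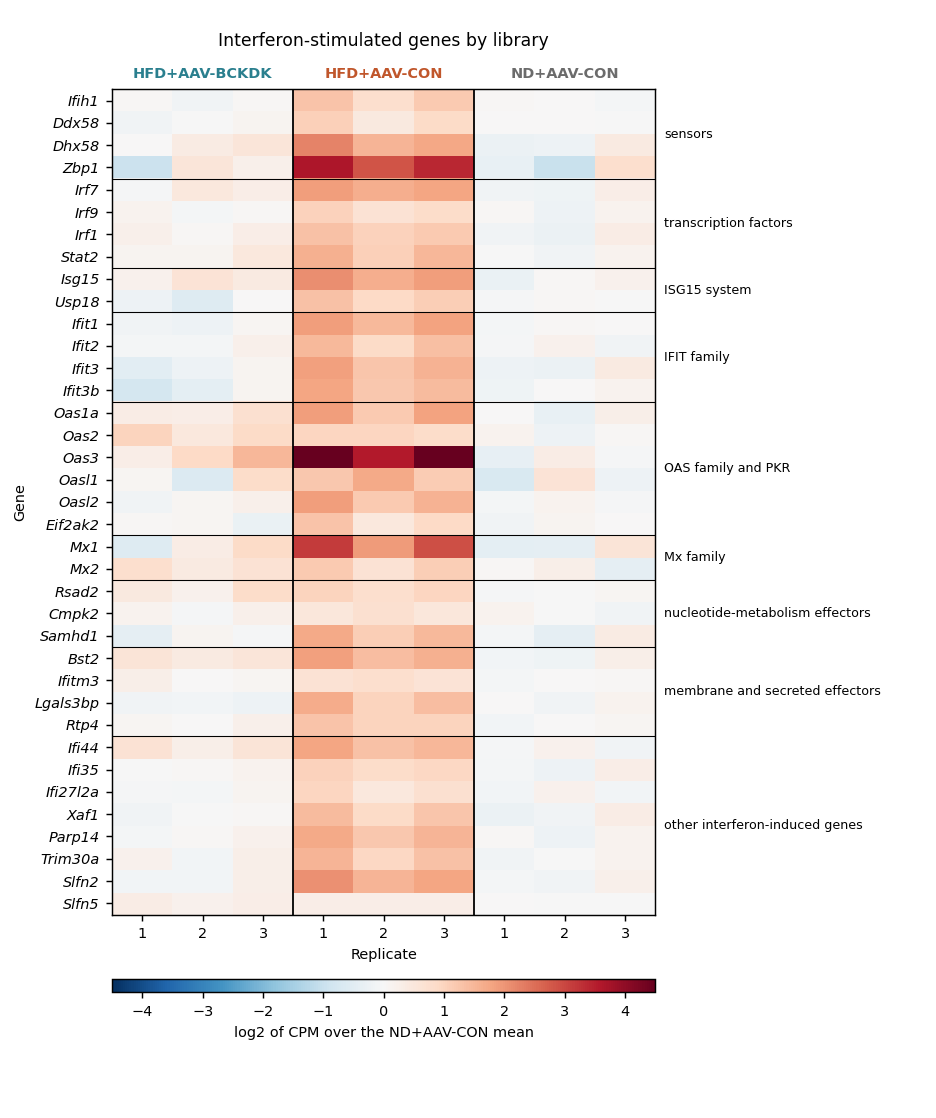
Each row is 1 of the 37 genes and each column 1 library, coloured by the log2 ratio of its CPM to the ND+AAV-CON mean (red higher, blue lower), with genes ordered by role. The HFD+AAV-CON columns are red throughout, deepest for Oas3, Zbp1 and Mx1, and replicate 2 is the palest of them in 32 rows. Genes that stay light red in the HFD+AAV-BCKDK columns include Oas1a, Oas2, Oas3, Mx2, Rsad2, Bst2 and Ifi44.

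The sensors detect foreign or misplaced nucleic acid in the cytoplasm and are themselves induced by interferon. All 4 were higher under the diet (median 1.47) and lower with the vector (median -1.30).
Ifih1 encodes MDA5, a receptor for long double-stranded RNA that signals through the mitochondrial adaptor MAVS. It had 14.4, 12.5 and 14.3 CPM in HFD+AAV-BCKDK hearts, 33.4, 23.2 and 30.8 CPM in HFD+AAV-CON hearts, and 14.3, 14.01 and 13.03 CPM in ND+AAV-CON hearts. The HFD+AAV-CON hearts were the 3 highest, and the other groups overlapped closely. Its fold change was 1.08 (SE 0.13, adjusted p = 0.000711) under the diet and -1.08 (SE 0.13, adjusted p = 0.00126) with the vector.
Ddx58 encodes RIG-I, which recognises short double-stranded RNA with a triphosphate end, and had 12.3, 13.5 and 14.9 CPM in HFD+AAV-BCKDK hearts, 28.3, 18.6 and 25.01 CPM in HFD+AAV-CON hearts, and 13.7, 13.7 and 13.4 CPM in ND+AAV-CON hearts. Its HFD+AAV-BCKDK values lay on both sides of the narrow ND+AAV-CON range. The diet fold change of Ddx58 was 0.82 (SE 0.15, adjusted p = 0.00267), and that of the vector -0.82 (SE 0.15, adjusted p = 0.00391).
Dhx58, the helicase LGP2 that tunes the other RIG-I-like receptors and lacks their signalling domain, was scarce, with 1.64, 2.09 and 2.40 CPM in HFD+AAV-BCKDK hearts, 7.59, 4.66 and 5.39 CPM in HFD+AAV-CON hearts, and 1.37, 1.38 and 2.15 CPM in ND+AAV-CON hearts. Even so its 3 HFD+AAV-CON libraries stood clear of the rest. For Dhx58 the fold change was 1.85 (SE 0.27, adjusted p = 0.00118) under the diet and -1.52 (SE 0.27, adjusted p = 0.00354) with the vector.
Zbp1 binds left-handed (Z-form) nucleic acid and can trigger necroptosis. Its level was 1.98, 5.62 and 4.49 CPM in HFD+AAV-BCKDK hearts, 48.2, 27.2 and 40.8 CPM in HFD+AAV-CON hearts, and 3.03, 1.94 and 6.59 CPM in ND+AAV-CON hearts. Every HFD+AAV-CON heart had more than 4 times the level of any other heart, while the other 2 groups spread over the same range. The fold change of Zbp1 under the diet was 3.32 (SE 0.47, adjusted p = 0.00111), a 10.01-fold difference, and with the vector -3.26 (SE 0.47, adjusted p = 0.0018).

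The 4 transcription factors carry or amplify the signal. All were higher under the diet (median 1.29, range 0.86 to 1.75) and lower with the vector (median -1.06, range -1.5 to -0.82).
Irf7, the factor that drives interferon alpha genes and forms a positive loop, had 16.2, 23.5 and 20.5 CPM in HFD+AAV-BCKDK hearts, 61.6, 51.8 and 56.98 CPM in HFD+AAV-CON hearts, and 15.1, 14.6 and 20.9 CPM in ND+AAV-CON hearts. HFD+AAV-CON hearts stood well above the rest, and the ranges of the other groups overlapped. Its fold change was 1.75 (SE 0.17, adjusted p = 0.000351) under the diet, the largest of the 4, and -1.5 (SE 0.17, adjusted p = 0.00124) with the vector.
Irf9, the DNA-binding part of ISGF3, had 23.6, 19.9 and 21.9 CPM in HFD+AAV-BCKDK hearts, 43.98, 33.7 and 37.8 CPM in HFD+AAV-CON hearts, and 21.9, 18.1 and 23.8 CPM in ND+AAV-CON hearts. The HFD+AAV-CON hearts were highest, and the other 2 groups overlapped. Irf9 changed by 0.86 (SE 0.13, adjusted p = 0.00147) under the diet and -0.82 (SE 0.13, adjusted p = 0.00249) with the vector. Rnf31 overlaps Irf9 on the same strand, so reads from the shared stretch cannot be told apart here.
Stat2, its partner in ISGF3, had 15.4, 15.3 and 19.8 CPM in HFD+AAV-BCKDK hearts, 43.3, 30.02 and 39.5 CPM in HFD+AAV-CON hearts, and 13.997, 12.7 and 15.8 CPM in ND+AAV-CON hearts. Here too the 3 HFD+AAV-CON libraries were highest, and HFD+AAV-BCKDK and ND+AAV-CON met through 1 ND+AAV-CON library, replicate 3. The fold changes of Stat2 were 1.41 (SE 0.16, adjusted p = 0.000585) under the diet and -1.16 (SE 0.16, adjusted p = 0.00154) with the vector.
Irf1, which interferon gamma induces strongly, had 34.5, 30.7 and 36.5 CPM in HFD+AAV-BCKDK hearts, 72.6, 60.9 and 66.4 CPM in HFD+AAV-CON hearts, and 26.6, 24.5 and 37.2 CPM in ND+AAV-CON hearts. All HFD+AAV-CON libraries exceeded the others by a wide gap, and ND+AAV-CON replicate 3 was above every HFD+AAV-BCKDK heart. Irf1 changed by 1.18 (SE 0.15, adjusted p = 0.000798) under the diet and -0.97 (SE 0.15, adjusted p = 0.00224) with the vector. Its RefSeq promoter held a GAS match 90 bases before one of its 2 starts and no ISRE match.

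**Figure D3:**
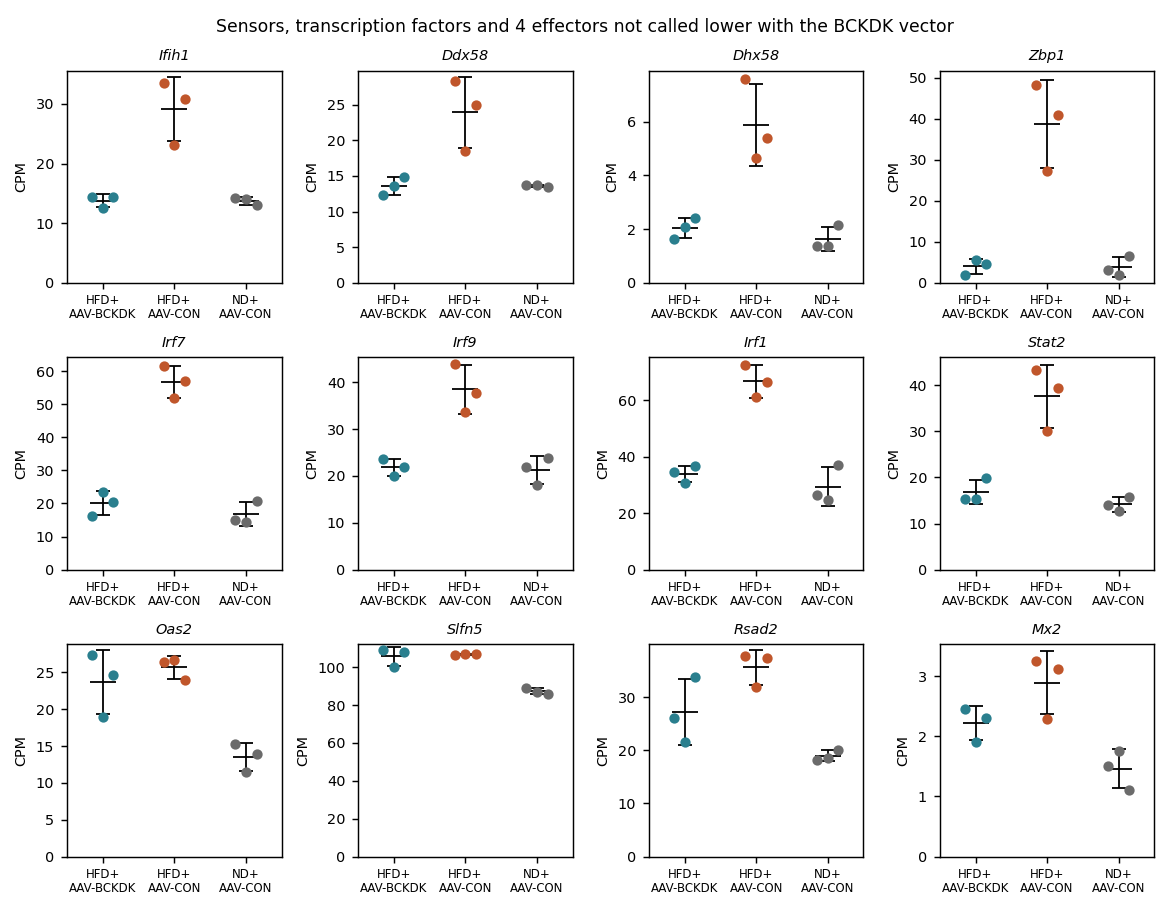
CPM (linear axis from 0) of the 4 sensors, the 4 transcription factors and Oas2, Slfn5, Rsad2 and Mx2; points are libraries in replicate order from left to right within a group, and bars are the mean ± SD of 3. In the top 2 rows HFD+AAV-CON stands alone. In the bottom row HFD+AAV-BCKDK is above ND+AAV-CON. Its mean there is near that of HFD+AAV-CON for Oas2 and Slfn5, and between the other groups for Rsad2 and Mx2.

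The ISG15 system attaches a small ubiquitin-like protein to targets and removes it again. Isg15, that modifier, had 6.31, 8.34 and 7.24 CPM in HFD+AAV-BCKDK hearts, 23.7, 17.1 and 20.3 CPM in HFD+AAV-CON hearts, and 4.43, 5.72 and 6.34 CPM in ND+AAV-CON hearts. The HFD+AAV-CON values were highest, and the other 2 groups touched only at their edges, where ND+AAV-CON replicate 3 was just above HFD+AAV-BCKDK replicate 1. Isg15 changed by 1.89 (SE 0.17, adjusted p = 0.000346) under the diet and by -1.48 (SE 0.17, adjusted p = 0.00124) with the vector.
Usp18, the protease that removes ISG15 and also blocks signalling at the interferon receptor, had 5.84, 4.49 and 6.84 CPM in HFD+AAV-BCKDK hearts, 16.8, 12.6 and 14.7 CPM in HFD+AAV-CON hearts, and 6.48, 7.10 and 6.72 CPM in ND+AAV-CON hearts. HFD+AAV-CON hearts were again apart, and 2 of the 3 HFD+AAV-BCKDK hearts were below all ND+AAV-CON hearts. Usp18 changed by 1.12 (SE 0.16, adjusted p = 0.00118) under the diet and -1.36 (SE 0.16, adjusted p = 0.00126) with the vector.

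The IFIT proteins bind viral RNA and block its translation, and the 4 genes on the list lie in a cluster on chromosome 19. All 4 rose under the diet (median 1.54) and fell with the vector (median -1.77).
Ifit1, which binds messenger RNA whose cap lacks methylation, had 8.50, 8.10 and 10.1 CPM in HFD+AAV-BCKDK hearts, 34.7, 25.95 and 33.6 CPM in HFD+AAV-CON hearts, and 8.99, 9.85 and 9.60 CPM in ND+AAV-CON hearts. Only HFD+AAV-CON stood apart, above a narrow band that held the other 6 libraries. Ifit1 changed by 1.73 (SE 0.13, adjusted p = 0.000206) under the diet and -1.82 (SE 0.13, adjusted p = 0.000606) with the vector.
Ifit2, known to bind AU-rich RNA, had 21.3, 21.6 and 26.8 CPM in HFD+AAV-BCKDK hearts, 63.2, 41.6 and 58.4 CPM in HFD+AAV-CON hearts, and 22.04, 25.97 and 20.4 CPM in ND+AAV-CON hearts. The 2 lower groups overlapped. It changed by 1.26 (SE 0.17, adjusted p = 0.000875) under the diet and -1.23 (SE 0.17, adjusted p = 0.00152) with the vector.
Ifit3 spanned 12.5 to 18.9 CPM in HFD+AAV-BCKDK, 40.95 to 62.4 CPM in HFD+AAV-CON and 14.3 to 22.8 CPM in ND+AAV-CON hearts. Ifit3b spanned 3.86 to 7.22 CPM in HFD+AAV-BCKDK, 15.6 to 22.9 CPM in HFD+AAV-CON and 5.80 to 7.53 CPM in ND+AAV-CON hearts. The pair moved alike, by 1.58 and 1.49 under the diet and by -1.74 and -1.81 with the vector (adjusted p of 0.00118 and 0.00143, then 0.00146 and 0.00131). They are near copies: 31.7% of the 100-base stretches of Ifit3 transcripts and 27.4% of those of Ifit3b also occur in the other gene, so how the authors' counting divided reads between them is uncertain.

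The OAS proteins sense double-stranded RNA and make the oligoadenylate that activates RNase L, and PKR, encoded by Eif2ak2, halts translation on the same cue. All 6 genes of this family were higher under the diet (median 1.47), and 5 were lower with the vector (median -1.17 over the 6; the sixth, Oas2, was called lower only with total-count scaling).
Oas3 had 0.614, 0.919 and 1.38 CPM in HFD+AAV-BCKDK hearts, 14.2, 5.82 and 11.02 CPM in HFD+AAV-CON hearts, and 0.383, 0.621 and 0.480 CPM in ND+AAV-CON hearts. These were 18, 26 and 58 counts in HFD+AAV-BCKDK, 888, 216 and 462 counts in HFD+AAV-CON and 14, 23 and 19 counts in ND+AAV-CON hearts. The gene was thus scarce outside the HFD+AAV-CON group. Oas3 had the largest fold changes of all members, 4.38 (SE 0.42, adjusted p = 0.000348) under the diet (about 20.9-fold) and -3.39 (SE 0.39, adjusted p = 0.00124) with the vector.
Oas2, which lies next to Oas3 on chromosome 5, had 27.4, 18.9 and 24.7 CPM in HFD+AAV-BCKDK hearts, 26.5, 26.7 and 23.9 CPM in HFD+AAV-CON hearts, and 15.3, 11.4 and 13.9 CPM in ND+AAV-CON hearts. Its HFD+AAV-BCKDK values lay around those of HFD+AAV-CON, with 1 above and 1 below all of them, and both high-fat groups were above ND+AAV-CON without overlap. Oas2 changed by 0.92 (SE 0.15, adjusted p = 0.00177) under the diet, while its vector value of -0.12 (SE 0.15, adjusted p = 0.554) was not called. Between HFD+AAV-BCKDK and ND+AAV-CON hearts its fold change was 0.81 (SE 0.15, adjusted p = 0.0286), the 1 call among the members there. That call was lost when any 1 of 6 libraries was left out (adjusted p = 0.0969 without HFD+AAV-BCKDK replicate 1, 0.104 without HFD+AAV-BCKDK replicate 3, 0.0582 without HFD+AAV-CON replicate 3, and 0.071, 0.106 and 0.0981 without ND+AAV-CON replicates 1, 2 and 3).
Oasl2, an OAS-like protein, had 12.01, 14.4 and 15.7 CPM in HFD+AAV-BCKDK hearts, 49.8, 30.9 and 39.6 CPM in HFD+AAV-CON hearts, and 12.6, 14.96 and 13.01 CPM in ND+AAV-CON hearts. HFD+AAV-CON hearts were apart, and the others overlapped. It changed by 1.57 (SE 0.17, adjusted p = 0.000538) under the diet and -1.51 (SE 0.17, adjusted p = 0.00124) with the vector.
Oasl1, which in mice restrains translation of Irf7, spanned 1.48 to 4.01 CPM in HFD+AAV-BCKDK, 5.03 to 7.43 CPM in HFD+AAV-CON and 1.42 to 3.46 CPM in ND+AAV-CON hearts. It had the highest adjusted p among the called members, with 1.37 (SE 0.40, adjusted p = 0.0216) under the diet and -1.15 (SE 0.40, adjusted p = 0.0465) with the vector. The vector call of Oasl1 was lost without any 1 of 6 libraries (HFD+AAV-BCKDK replicates 1 and 2, each HFD+AAV-CON replicate and ND+AAV-CON replicate 3, with adjusted p of 0.123, 0.132, 0.0753, 0.102, 0.0824 and 0.0593 in that order). Its diet call was lost without ND+AAV-CON replicate 1 (0.073) or replicate 3 (0.065).
Oas1a spanned 7.14 to 9.76 CPM in HFD+AAV-BCKDK, 13.3 to 21.3 CPM in HFD+AAV-CON and 4.67 to 7.02 CPM in ND+AAV-CON hearts. Eif2ak2 spanned 6.53 to 8.41 CPM in HFD+AAV-BCKDK, 11.04 to 19.2 CPM in HFD+AAV-CON and 7.16 to 8.80 CPM in ND+AAV-CON hearts. Oas1a changed by 1.65 under the diet and -1.19 with the vector (adjusted p of 0.00088 and 0.00429), and Eif2ak2 by 0.91 and -0.95 (adjusted p of 0.0062 and 0.00711). Since 40.9% of the 100-base stretches of Oas1a also occur in Oas1g, the split of reads between those 2 genes is uncertain.

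The Mx proteins are dynamin-like GTPases that trap viral particles, Mx1 in the nucleus and Mx2 in the cytoplasm of mouse cells. Many laboratory mouse strains carry defective copies of both genes. Both were higher under the diet, and Mx1 was lower with the vector, as was Mx2 only with total-count scaling.
Mx1 had 0.717, 1.34 and 1.97 CPM in HFD+AAV-BCKDK hearts, 9.43, 4.01 and 8.08 CPM in HFD+AAV-CON hearts, and 0.793, 0.810 and 1.62 CPM in ND+AAV-CON hearts. The counts behind the lowest values were 21 in HFD+AAV-BCKDK, 149 in HFD+AAV-CON and 29 in ND+AAV-CON hearts, and only HFD+AAV-CON stood apart. Mx1 changed by 2.74 (SE 0.45, adjusted p = 0.00195) under the diet and -2.40 (SE 0.45, adjusted p = 0.0046) with the vector.
Mx2 had 2.46, 1.91 and 2.30 CPM in HFD+AAV-BCKDK hearts, 3.26, 2.29 and 3.12 CPM in HFD+AAV-CON hearts, and 1.5, 1.75 and 1.11 CPM in ND+AAV-CON hearts. Its HFD+AAV-BCKDK and HFD+AAV-CON libraries overlapped, and both were above all ND+AAV-CON libraries. Mx2 rose by 0.99 (SE 0.25, adjusted p = 0.0111) under the diet, and its vector fold change of -0.38 (SE 0.24, adjusted p = 0.24) was not called. Between HFD+AAV-BCKDK and ND+AAV-CON hearts it differed by 0.61 (SE 0.25, adjusted p = 0.251), also not called.

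A trio of effectors acts on nucleotides. Rsad2 (viperin) makes a chain-terminating nucleotide, its neighbour on chromosome 12, Cmpk2, is a mitochondrial nucleotide kinase, and Samhd1 breaks down the building blocks of DNA. All 3 were higher under the diet (median 0.91), and 2 were lower with the vector (Rsad2 as well with total-count scaling).
Rsad2 had 26.04, 21.7 and 33.9 CPM in HFD+AAV-BCKDK hearts, 37.7, 31.9 and 37.4 CPM in HFD+AAV-CON hearts, and 18.2, 18.7 and 20.1 CPM in ND+AAV-CON hearts. The HFD+AAV-BCKDK hearts lay between the other groups, and 1 of them reached into the HFD+AAV-CON range. Rsad2 changed by 0.91 (SE 0.15, adjusted p = 0.00197) under the diet, while its vector value of -0.39 (SE 0.15, adjusted p = 0.0657) missed the threshold. It passed without HFD+AAV-BCKDK replicate 3 (-0.58, adjusted p = 0.015) and without HFD+AAV-CON replicate 2 (-0.44, adjusted p = 0.0421). Between HFD+AAV-BCKDK and ND+AAV-CON hearts Rsad2 differed by 0.52 (SE 0.15, adjusted p = 0.116).
Samhd1 had 29.5, 43.3 and 38.1 CPM in HFD+AAV-BCKDK hearts, 128, 84.1 and 109 CPM in HFD+AAV-CON hearts, and 36.7, 30.1 and 51.3 CPM in ND+AAV-CON hearts. Only HFD+AAV-CON stood apart, and the widest spread below it was in ND+AAV-CON. Samhd1 changed by 1.44 (SE 0.22, adjusted p = 0.00156) under the diet and -1.53 (SE 0.23, adjusted p = 0.00185) with the vector.
Cmpk2 changed least of the trio under the diet and spanned 14.8 to 17.7 CPM in HFD+AAV-BCKDK, 21.5 to 24.8 CPM in HFD+AAV-CON and 13.8 to 16.9 CPM in ND+AAV-CON hearts. It changed by 0.57 (SE 0.11, adjusted p = 0.0038) under the diet and -0.46 (SE 0.11, adjusted p = 0.0136) with the vector, and the vector call was lost without HFD+AAV-BCKDK replicate 2 (adjusted p = 0.0517).

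Among membrane and secreted effectors, all 4 were higher under the diet (median 1.25) and lower with the vector (median -1.05).
Bst2 (tetherin), which holds budding virions at the cell surface, had 45.4, 40.3 and 43.95 CPM in HFD+AAV-BCKDK hearts, 108, 78.99 and 90.4 CPM in HFD+AAV-CON hearts, and 27.3, 26.6 and 36.2 CPM in ND+AAV-CON hearts. Here the 3 groups formed 3 separate ranges, with HFD+AAV-BCKDK in the middle. Bst2 changed by 1.62 (SE 0.15, adjusted p = 0.000346) under the diet and -1.10 (SE 0.15, adjusted p = 0.00142) with the vector. Its difference between HFD+AAV-BCKDK and ND+AAV-CON hearts was 0.52 (SE 0.15, adjusted p = 0.104), which was not called.
Ifitm3, which blocks fusion of viruses with endosomes, had 83.5, 71.3 and 73.6 CPM in HFD+AAV-BCKDK hearts, 110.2, 117 and 108 CPM in HFD+AAV-CON hearts, and 66.3, 70.6 and 72.2 CPM in ND+AAV-CON hearts. The rise was small beside the level, and HFD+AAV-CON did not overlap the others. Ifitm3 changed by 0.68 (SE 0.083, adjusted p = 0.000684) under the diet and -0.55 (SE 0.083, adjusted p = 0.002) with the vector. Per kilobase of exon it was the most abundant member in every group, at 112 ± 9.55 CPM per kb in HFD+AAV-BCKDK, 165 ± 7.47 CPM per kb in HFD+AAV-CON and 103 ± 4.54 CPM per kb in ND+AAV-CON hearts (SD, n = 3 each). On the same scale Oas3 was the least abundant in HFD+AAV-BCKDK (0.137 CPM per kb) and ND+AAV-CON hearts (0.0700 CPM per kb), and Mx2 in HFD+AAV-CON hearts (0.799 CPM per kb).
Lgals3bp, a secreted binding partner of galectin-3, spanned 45.8 to 49.4 CPM in HFD+AAV-BCKDK, 109 to 170.1 CPM in HFD+AAV-CON and 47.98 to 59.7 CPM in ND+AAV-CON hearts. Rtp4, a chaperone of membrane receptors, spanned 12.8 to 14.6 CPM in HFD+AAV-BCKDK, 25.3 to 30.4 CPM in HFD+AAV-CON and 11.5 to 13.3 CPM in ND+AAV-CON hearts. Lgals3bp changed by 1.38 under the diet and -1.55 with the vector (adjusted p of 0.000519 and 0.00106). Rtp4 changed by 1.11 and -1.0 (adjusted p of 0.000351 and 0.00121). Masp1 overlaps Rtp4 on the opposite strand, and 11.2% of the 100-base stretches of Rtp4 recur in another gene model, Gm45338, so its level is uncertain.

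The last 8 members are other interferon-induced genes. All were higher under the diet (median 1.25), and 7 were lower with the vector (median -1.10 over the 8; Slfn5 was called lower only with total-count scaling).
Slfn2, a schlafen protein that keeps T cells and monocytes quiescent in mice, had 10.5, 10.5 and 13.5 CPM in HFD+AAV-BCKDK hearts, 47.6, 32.4 and 39.2 CPM in HFD+AAV-CON hearts, and 10.6, 10.2 and 13.3 CPM in ND+AAV-CON hearts. Only HFD+AAV-CON stood apart. Slfn2 changed by 1.81 (SE 0.17, adjusted p = 0.000348) under the diet and -1.78 (SE 0.17, adjusted p = 0.00106) with the vector, with no ISRE match in the window printed above.
Slfn5, a schlafen family member, had 109, 99.97 and 108 CPM in HFD+AAV-BCKDK hearts, 106, 107 and 107 CPM in HFD+AAV-CON hearts, and 89.1, 87.1 and 86.1 CPM in ND+AAV-CON hearts. The 6 high-fat hearts of both vectors overlapped with each other and were all above the ND+AAV-CON hearts, and the spread within each group was narrow. Slfn5 changed by 0.29 (SE 0.067, adjusted p = 0.0088) under the diet, the smallest change of any member, and its vector value of -0.01 (SE 0.067, adjusted p = 0.898) was not called. Between HFD+AAV-BCKDK and ND+AAV-CON hearts it differed by 0.27 (SE 0.068, adjusted p = 0.0733), which was not called.
Parp14, an ADP-ribosyltransferase, spanned 31.98 to 38.8 CPM in HFD+AAV-BCKDK, 78.8 to 112 CPM in HFD+AAV-CON and 29.1 to 37.6 CPM in ND+AAV-CON hearts. Ifi44 spanned 9.79 to 12.9 CPM in HFD+AAV-BCKDK, 20.5 to 28.1 CPM in HFD+AAV-CON and 7.43 to 9.26 CPM in ND+AAV-CON hearts. Xaf1, an antagonist of an inhibitor of apoptosis, spanned 10.7 to 12.4 CPM in HFD+AAV-BCKDK, 21.6 to 32.1 CPM in HFD+AAV-CON and 9.90 to 14.9 CPM in ND+AAV-CON hearts. In each of these the HFD+AAV-CON libraries were all above the others. They changed by 1.5, 1.55 and 1.20 under the diet and by -1.45, -1.04 and -1.24 with the vector.
Trim30a, a mouse protein that restrains Toll-like receptor signalling, spanned 14.1 to 18.6 CPM in HFD+AAV-BCKDK, 29.6 to 44.9 CPM in HFD+AAV-CON and 13.7 to 17.4 CPM in ND+AAV-CON hearts. Ifi35 spanned 15.8 to 18.3 CPM in HFD+AAV-BCKDK, 28.6 to 33.5 CPM in HFD+AAV-CON and 13.7 to 19.7 CPM in ND+AAV-CON hearts. Ifi27l2a spanned 20.3 to 23.2 CPM in HFD+AAV-BCKDK, 30.2 to 41.7 CPM in HFD+AAV-CON and 19.8 to 24.9 CPM in ND+AAV-CON hearts. These 3 genes also had no HFD+AAV-CON library within the range of another group. They changed by 1.29, 0.93 and 0.73 under the diet and by -1.17, -0.87 and -0.74 with the vector. The adjusted p of edgeR's quasi-likelihood test was at most 0.00328 under the diet and 0.00466 with the vector over these 6 genes.

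**Figure D4:**
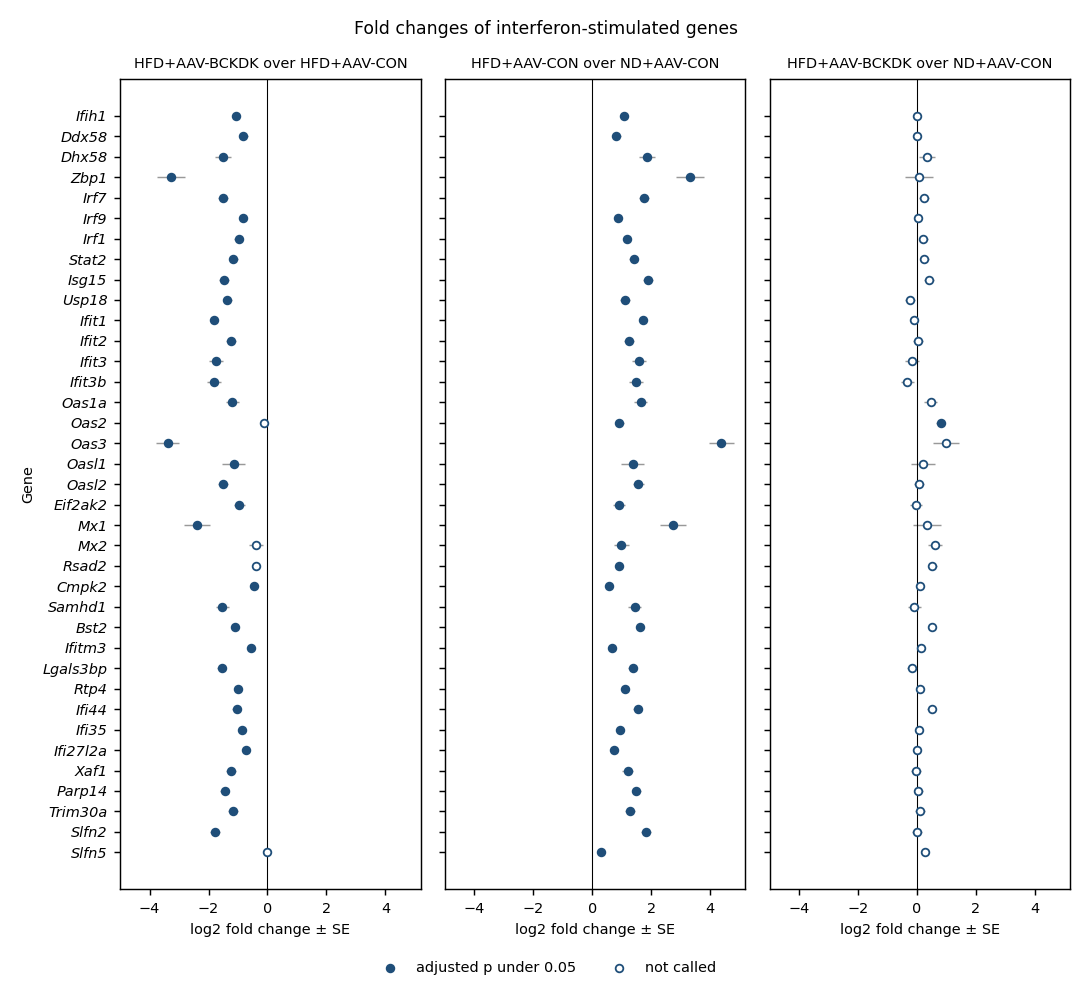
Log2 fold change ± SE of each member in the 3 comparisons, named above each panel; filled points have an adjusted p under 0.05 and open points do not. All 37 points are right of 0 in the comparison of diets. For HFD+AAV-BCKDK over HFD+AAV-CON, 33 are filled and left of 0 (37 with total-count scaling, which also lowered the median of all genes). Only Oas2 is filled in the right panel.

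The sources used here do not say whether counting used the strand of a read. In the GENCODE annotation of GRCm38, 12 members overlap a gene on the opposite strand, and 3 (Irf9, Rtp4 and Parp14) overlap one on the same strand. Oas2 and Slfn5 are among the 12, with Gm43068 and Slfn5os across from them. Without strand, reads of a gene and its antisense partner cannot be told apart. Shorter shared stretches make a small part of other members uncertain: 4.79% of the 100-base stretches of Trim30a recur in Trim30d, 3.29% of those of Ifit1 in Ifit1bl2, and 1.25% of those of Mx1 in Mx2.

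The promoter motifs were also set beside the fold changes. Members with an ISRE match had a median log2 fold change of 1.41 under the diet and -1.16 with the vector, and members without one had 1.37 and -1.23. Both sets spanned wide ranges, from 0.29 to 4.38 with a match and from 0.57 to 1.81 without, under the diet. Members with a GAS match had a median of 1.22 under the diet and -1.04 with the vector, and those without had 1.40 and -1.21. A match is a string of letters and not a measured site of binding. No match says only that these letters are absent from this window.

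Upstream of the members, almost no reads were counted for the ligands. Of 20 genes for type I and type III interferons, 18 (among them Ifnb1 and every numbered Ifna gene on the list) had 0 counts in every library, which allows up to 0.0481 to 0.106 CPM a library at 3 counts. The exceptions, Ifnab and Ifnz, together had 1, 0 and 1 counts in HFD+AAV-BCKDK, 0, 1 and 4 counts in HFD+AAV-CON and 6, 2 and 1 counts in ND+AAV-CON hearts. None of the 20 passed the filter on low counts, and no difference was detectable at this depth. How much sequence these genes share was not examined, and the counting tool is not stated. Whether reads that fit several of them were counted is thus unknown.
Ifng, the gene of interferon gamma made by T and NK cells, was found at 0, 2 and 2 counts in HFD+AAV-BCKDK, 181, 54 and 93 counts in HFD+AAV-CON and 0, 0 and 32 counts in ND+AAV-CON hearts. The HFD+AAV-CON libraries were highest, and ND+AAV-CON replicate 3 was above every other library outside that group. By edgeR's quasi-likelihood test Ifng was called higher under the diet (adjusted p = 0.0493), a call that ended without HFD+AAV-CON replicate 3 (adjusted p = 0.112), and lower with the vector (adjusted p = 0.0147).

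Of all genes tested, 22.7% were called higher under the diet and 20.9% lower with the vector, which is the background for each pathway list below. Of the 6 interferon receptor genes, 3 were higher and 2 lower under the diet, and 3 were lower with the vector. These were 2, 1 and 1 without HFD+AAV-CON replicate 3. Ifnar1 and Ifnar2, the type I receptor, changed by 0.62 and 0.37 under the diet and by -0.66 and -0.46 with the vector, and Ifngr1, of the gamma receptor, by 0.63 and -0.57. The 2 that fell were Ifnlr1 (-1.04) and Il10rb (-0.35), the type III receptor pair, and neither was called with the vector. With total-count scaling neither was called lower under the diet.
Of 3 receptor kinases, 2 rose under the diet and fell with the vector. With HFD+AAV-CON replicate 3 left out, 1 rose and 2 fell, and Jak2 was not called under the diet. Tyk2 changed by 0.67 and -0.84, Jak2 by 0.43 and -0.62, and Jak1 was not called (-0.22 and -0.01), except as lower under the diet with upper-quartile scaling and lower with the vector with total-count scaling.
Of 18 further genes listed for the route from nucleic acid to interferon, 15 were higher under the diet and 14 lower with the vector. Tlr4 and Aim2, both among the 15, are not particular to that route. Tmem173 encodes STING and changed by 1.93 under the diet and -1.78 with the vector, Cgas, the DNA sensor before it, by 1.52 and -0.98, and the endosomal receptor Tlr7 by 1.52 and -1.82. The adaptor Mavs (-0.38 and 0.33) and Irf3 (0.03 and -0.11), the factor both routes activate, were not called in either comparison. With other scalings, Mavs was lower under the diet (upper-quartile), and Irf3 was higher under the diet and lower with the vector (total-count). Without HFD+AAV-CON replicate 3 the counts of these 18 genes were 12 and 10, and Cgas was not called with the vector (adjusted p = 0.117 by edgeR's quasi-likelihood test).
Of 13 brakes, 6 were higher and 1 lower under the diet, and 6 were lower and 1 higher with the vector. Socs1 and Socs3, which block JAK kinases, changed by 1.78 and 2.14 under the diet and by -2.18 and -1.90 with the vector. Adar, which edits the cell's own double-stranded RNA, changed by 0.80 and -0.75. Rnaseh2a was the 1 that fell under the diet (-0.46) and Rnaseh2c the 1 that rose with the vector (0.41), and neither was called so with total-count scaling.
Of all 14160 genes tested, 3215 were higher and 2919 lower under the diet, and 2444 higher and 2966 lower with the vector. Over the 41 pathway genes tested, Ifng included, 27 were higher, 3 lower and 11 not called under the diet, and 1 was higher, 26 lower and 14 not called with the vector. With total-count scaling these were 33 higher and 0 lower, and 0 higher and 35 lower. Without HFD+AAV-CON replicate 3 they were 21 higher and 1 lower, and 0 higher and 19 lower. Between HFD+AAV-BCKDK and ND+AAV-CON hearts 0 of 41 were called by edgeR's quasi-likelihood test, by DESeq2 or by limma-voom, and each gave 0 higher and 3 lower at an unadjusted p under 0.05. At that p edgeR's test gave 1064 of all 14160 genes higher and 1341 lower.

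Most markers of macrophages and monocytes and of T and NK cells moved with the members. Fewer of those of neutrophils and B cells were called. As background for the counts below, 22.7% of all genes tested were called higher under the diet and 20.9% lower with the vector. In the other direction, 2919 of 14160 genes were lower under the diet and 2444 higher with the vector. Of 15 macrophage and monocyte markers, 13 were higher under the diet, and 14 were lower and 1 (Cd163) higher with the vector, the last not called with total-count scaling. Their summed level was 598 to 787 CPM in HFD+AAV-BCKDK, 2080 to 3446 CPM in HFD+AAV-CON and 766 to 1072 CPM in ND+AAV-CON hearts.
Set against that sum, the summed interferon-stimulated genes were 1.23, 0.947 and 1.0 in HFD+AAV-BCKDK, 0.512, 0.637 and 0.558 in HFD+AAV-CON hearts, and 0.848, 0.829 and 0.687 in ND+AAV-CON hearts. The ratio was thus lowest in HFD+AAV-CON and highest in HFD+AAV-BCKDK, with no overlap between groups. Of the macrophage sum, Lyz2 alone gave 284 of 598 CPM in HFD+AAV-BCKDK replicate 1 and 1711 of 3446 CPM in HFD+AAV-CON replicate 1. In ND+AAV-CON replicate 1 it gave 377 of 766 CPM. The ratio therefore leans on 1 marker, and it is no level per macrophage, since which cells held the members' RNA was not tested.
Of 12 T and NK cell markers, 8 were higher under the diet and 10 lower with the vector, with sums of 3.04 to 15.9 CPM, 125 to 220.4 CPM and 3.10 to 51.1 CPM in HFD+AAV-BCKDK, HFD+AAV-CON and ND+AAV-CON hearts. Of 5 B cell markers, 0 were called under the diet and 3 were lower with the vector (with total-count scaling, 2 were higher under the diet and 5 lower with the vector), with sums of 0.389 to 1.31, 5.25 to 11.6 and 1.03 to 6.79 CPM in the same order of groups. Of 7 markers of plasmacytoid dendritic cells, the professional makers of type I interferon, 4 were tested and 3 were higher under the diet and lower with the vector. Their sums were 82.0 to 97.7, 96.1 to 123 and 74.0 to 90.8 CPM, mostly from the widely expressed Tcf4, and the defining markers Siglech, Ccr9 and Klk1 were near 0 in every library and not tested. Of 7 neutrophil markers, 6 were tested, of which 2 were higher under the diet and 1 lower with the vector, with sums of 4.14 to 10.99, 12.3 to 15.5 and 2.87 to 4.32 CPM. Of 8 fibroblast markers, 6 were higher under the diet and 7 lower with the vector, with sums of 1159 to 1284, 1897 to 4518 and 1326 to 1408 CPM. Endothelial markers went the other way, with 6 of 9 lower under the diet and 7 higher with the vector (with total-count scaling, 3 lower and 1 higher under the diet and 1 higher with the vector), at sums of 899 to 1030.3, 595 to 803 and 868 to 997 CPM. Of 10 cardiomyocyte markers, 8 were lower under the diet and 7 higher with the vector. Without HFD+AAV-CON replicate 3 these were 2 and 0, and the endothelial counts were 5 and 3. The counts under the diet and with the vector were then 4 and 4 for fibroblast, 0 and 1 for B cell, 6 and 8 for T and NK cell, and 2 and 3 for plasmacytoid dendritic cell markers. The part of these cell mixtures in the levels of the interferon-stimulated genes was not tested.

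**Figure D5:**
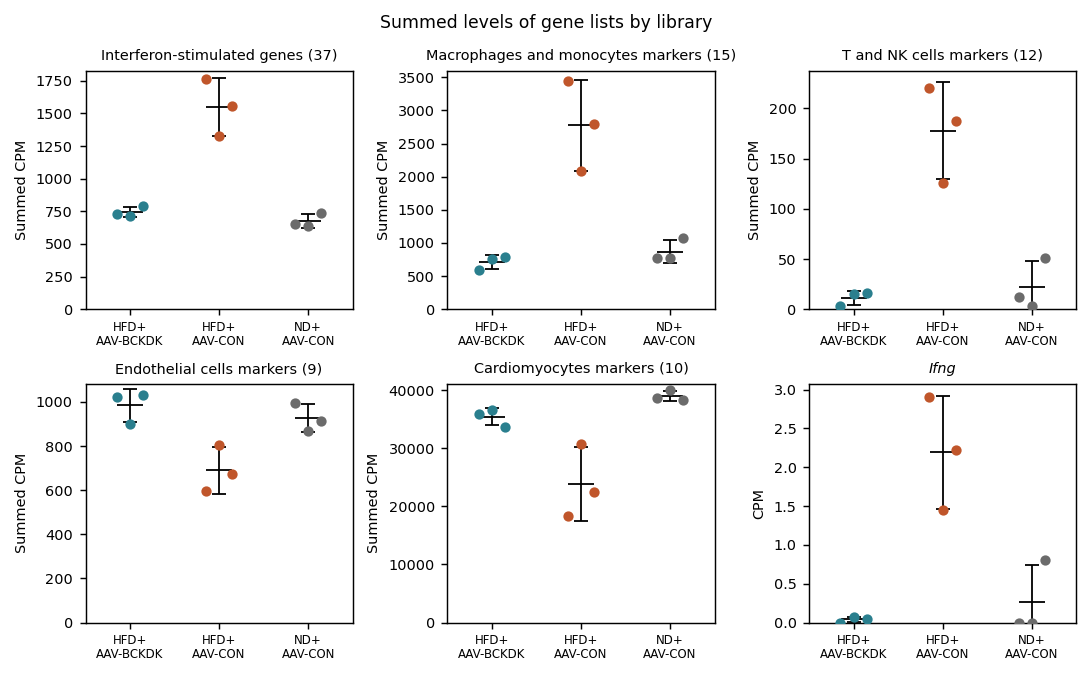
Summed CPM per library of the 37 interferon-stimulated genes, of markers of 4 cell types, and the CPM of Ifng (linear axes from 0); points are libraries in replicate order and bars the mean ± SD of 3. HFD+AAV-CON is highest for the members, macrophages, T and NK cells and Ifng, and lowest for cardiomyocytes and endothelial cells, and its replicate 2 is nearest to the other groups in all 6 panels.

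The HFD+AAV-CON libraries kept one order in most members. In HFD+AAV-CON hearts replicate 1 was highest in 32 of 37 members and replicate 2 lowest in 32, which is also the order of the macrophage sums (3446, 2080 and 2793 CPM in replicates 1, 2 and 3). Cmpk2, Oasl1, Ifitm3, Oas2 and Slfn5 were the members in which replicate 1 was not the highest. Among ND+AAV-CON hearts replicate 3 was highest in 22 members, and it also had the highest sum of macrophage, T and NK cell and B cell markers in its group. Among HFD+AAV-BCKDK hearts replicate 3 was highest in 23 members. Oas3 varied most within HFD+AAV-CON (10.4 ± 4.25 CPM, SD, n = 3) in relation to its mean, and Slfn5 least (107 ± 0.162 CPM, SD, n = 3).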

How the data were processed

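Bulk mRNA was sequenced from the left ventricle of 9 mice, 3 per group. RNA was taken up in Trizol and made into libraries with a VAHTS mRNA-seq kit, per the labels' protocols. The deposited table holds raw read counts per gene, and alignment with HISAT2 2.0.5 to mm10 is named in the submitters' processing notes. Counting tool, annotation and strand setting are not stated in what was used here.

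Rows without a gene name (1.02% to 6.01% of a library's counts) were left out. Tests used edgeR 4.0.16 in R 4.3.3: filterByExpr, TMM factors, 1 quasi-likelihood fit over all 9 libraries, contrasts for the 3 pairs of groups, Benjamini-Hochberg adjustment over 14160 genes, and a threshold of 0.05. P-values measure the spread between these animals' libraries, with all 9 taken as independent. Counts were simulated for the diet comparison (HFD+AAV-CON, ND+AAV-CON) over 13800 genes, with 100 genes changed 2-fold and 100 changed 4-fold. Of these, 66% of 2-fold and 84% of 4-fold changes were recovered, with 6 false calls among 156 calls. Far more genes were called in the measured data, so these rates need not hold there. Alternatives were RLE, upper-quartile and total-count scaling, other filters, leaving out mitochondrially encoded genes, DESeq2 1.42.0, limma-voom (limma 3.58.1), a replicate block, fits of 2 groups, a threshold of 0.01, leaving out each library and, added after the data were seen, keeping unnamed loci and the scalings and left-out library for pathway and marker lists.

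Values in every library are given for all sensors, transcription factors and ISG15 genes, for the member of each other family with the highest level and that with the largest diet change, and for members not called in a main comparison or called between HFD+AAV-BCKDK and ND+AAV-CON. The members and all lists were chosen with earlier results of these data known. One gene of the signalling pathway is not reported here.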

Additional observations from a re-analysis of the deposited data

How the results depend on the processing

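Under 21 alternative settings no called member changed direction. Over members and settings together, 4 calls under the diet were lost and 0 gained, 11 with the vector were lost and 7 gained, and 8 between HFD+AAV-BCKDK and ND+AAV-CON were lost and 8 gained. Over the leave-one-out fits, 36 to 37 members were called higher under the diet and 31 to 34 lower with the vector. In the fit of all 9 libraries, 22.7% of all genes were called higher under the diet and 20.9% lower with the vector.

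With the settings of the report, 3215 genes were called higher and 2919 lower under the diet, 2444 higher and 2966 lower with the vector, and 167 higher and 180 lower between HFD+AAV-BCKDK and ND+AAV-CON. With total-count scaling these were 5986 and 934, 398 and 6867, and 51 and 85. The members' medians were then 1.74 under the diet and -1.65 with the vector, all 37 were called lower with the vector, among them Rsad2 (adjusted p = 0.00976), Mx2 (0.0376), Oas2 (0.0275) and Slfn5 (0.0106), and 0 were called higher in HFD+AAV-BCKDK against ND+AAV-CON. A threshold of 0.01 gave 1940 and 1314, 497 and 1561, and 35 and 29, with 0 members in the last pair of groups. Fits of 2 groups alone gave 1491 genes higher with the vector, and 464 higher and 409 lower between HFD+AAV-BCKDK and ND+AAV-CON, with 3 members higher. DESeq2 gave 471 and 408 there, with 4 members higher (Rsad2, Bst2 and Slfn5 beside Oas2).

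Leaving out 1 library gave 1724 to 3689 genes lower under the diet, 984 to 3555 higher and 1863 to 3423 lower with the vector, and, between HFD+AAV-BCKDK and ND+AAV-CON, 24 to 425 higher and 19 to 319 lower with 0 to 3 members higher. The lowest counts of all genes came without HFD+AAV-CON replicate 3 or ND+AAV-CON replicate 1 and the highest without HFD+AAV-CON replicate 2. Replicate numbers did not pair the samples: same-numbered libraries' deviations from their group means correlated at -0.18 to 0.16. With the replicate block, 57 genes were higher and 50 lower between HFD+AAV-BCKDK and ND+AAV-CON, Rsad2 was called lower with the vector (0.0353), and Oasl1 was not (0.0695). Oasl1 was not called with unnamed loci kept (0.0637). The cause of these shifts was not tested. Depth limits the ligands, at or under 3 counts in most libraries, and Oas3 and Mx1, which had few counts outside HFD+AAV-CON hearts.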
